A study of Homo sapiens with 38 samples.

Results

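The promoters described here are those of the chromosome 19 ZNF genes, the protein-coding genes of chromosome 19 whose GENCODE name is ZNF followed by digits. There were 240 of them among 1476 protein-coding promoters of chromosome 19 (16.3%) and 19970 on the autosomes and chromosome X (1.20%), and another 236 genes named in this way lay on other chromosomes. A promoter was taken as the start site of the canonical transcript with 1500 bp on either side (build hg38). Binding was mapped by CUT&RUN, in which an antibody guides a nuclease to a chromatin protein and the DNA cut free around it is sequenced. Each of 30 antibody libraries had 2 region lists, made by the authors with EPIC2 (broad domains) and MACS2 (narrow peaks), each called against IgG. A promoter was scored as bound in a list when a region with a false discovery rate below 0.05 and a fold over IgG above 2 touched its window.

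H1299 cells come from a non-small cell lung cancer and lack DPPA2 and DPPA4 of their own. Here they carried doxycycline-inducible Flag-DPPA2 and V5-DPPA4 inserted by PiggyBac transposition. These cells were sorted populations rather than single clones, and had been treated with 2 µg/mL doxycycline for 7 days. They were profiled with 6 antibodies in 2 replicates each: DPPA2, Flag (a monoclonal and a superclonal antibody), DPPA4 (an N-terminal antibody and ab154642) and V5. H661 cells, from another cancer of this kind, express both genes. They were profiled as the untreated parental line with DPPA2 and 3 DPPA4 antibodies (N-terminal, ab154642 and central), 1 library each. H661 lines with doxycycline-inducible short hairpins against DPPA4 (shDPPA4) or against both genes (shDPPA2+4) were kept for 7 days in 2 µg/mL doxycycline (Dox) or in water. In these lines DPPA4 (N-terminal antibody) and RING1B were mapped in Dox and in water, and PCGF1, MTF2 and EP300 in water, again 1 library each. Cell identity could not be checked against marker genes, since no expression was measured in these libraries.

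Most of these genes encode C2H2 zinc finger proteins, many of which carry a KRAB domain. Tandem fingers read long DNA motifs, often inside transposable elements, and the KRAB domain recruits TRIM28, which brings the H3K9 methyltransferase SETDB1 and HP1 proteins to the site. The family spread by tandem duplication and sits in clusters along chromosome 19. DPPA2 and DPPA4 are SAP domain proteins of early embryos and germ cells that act as a pair and, in mouse embryonic stem cells, keep a set of CpG-rich promoters free of DNA methylation. RING1B is the catalytic ubiquitin ligase of Polycomb repressive complex PRC1, and PCGF1 is the subunit that defines a variant PRC1 found at CpG islands. MTF2 tethers PRC2 to unmethylated CpG-rich DNA, and EP300 is a histone acetyltransferase of active promoters and enhancers.

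The start regions of 4 genes are shown with every CpG in capitals, since the shares below are set against promoters of like CpG. ZNF569 and ZNF345 are the highest-ranked members by DPPA2 and DPPA4 fold in parental H661 for which a RefSeq promoter with the same start was found, and ZNF541 and ZNF577 are the most CpG-rich members with neither protein in any list of any library. Each run covers 250 bases before the start and 50 from it, 5′ to 3′ on the gene's strand (RefSeq, GRCh38.p14; ZNF569 chr19:37467395-37467694 minus strand, ZNF345 chr19:36850626-36850925 plus strand, ZNF541 chr19:47573099-47573398 minus strand, ZNF577 chr19:51887902-51888201 minus strand).
ZNF569: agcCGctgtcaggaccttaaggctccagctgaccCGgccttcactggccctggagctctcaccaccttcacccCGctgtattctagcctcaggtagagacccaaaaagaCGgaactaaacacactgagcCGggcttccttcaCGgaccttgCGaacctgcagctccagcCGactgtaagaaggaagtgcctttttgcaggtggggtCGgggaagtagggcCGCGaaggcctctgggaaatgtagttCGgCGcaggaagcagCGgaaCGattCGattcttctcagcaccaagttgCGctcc
ZNF345: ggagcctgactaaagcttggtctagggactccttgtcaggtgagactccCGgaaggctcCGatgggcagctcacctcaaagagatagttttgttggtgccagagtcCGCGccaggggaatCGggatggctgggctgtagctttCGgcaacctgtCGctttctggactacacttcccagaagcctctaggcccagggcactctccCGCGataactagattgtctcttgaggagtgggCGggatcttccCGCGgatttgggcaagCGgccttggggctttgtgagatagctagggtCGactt
ZNF541: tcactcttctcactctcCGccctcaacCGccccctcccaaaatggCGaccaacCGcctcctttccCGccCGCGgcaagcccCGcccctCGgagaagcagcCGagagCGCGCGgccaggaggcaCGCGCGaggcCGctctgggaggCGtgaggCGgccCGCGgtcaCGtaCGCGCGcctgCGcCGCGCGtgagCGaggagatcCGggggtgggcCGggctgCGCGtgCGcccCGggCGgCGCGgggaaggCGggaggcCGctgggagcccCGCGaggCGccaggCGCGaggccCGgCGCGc
ZNF577: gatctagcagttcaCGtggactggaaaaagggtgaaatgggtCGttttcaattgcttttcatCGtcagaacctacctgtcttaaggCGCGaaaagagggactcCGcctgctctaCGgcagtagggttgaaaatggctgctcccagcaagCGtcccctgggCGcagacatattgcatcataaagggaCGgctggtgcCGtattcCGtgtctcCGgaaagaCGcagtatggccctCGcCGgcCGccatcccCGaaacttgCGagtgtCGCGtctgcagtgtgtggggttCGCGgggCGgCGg
The promoters of ZNF569 and ZNF345, scored as bound over their whole windows, hold 17 and 14 CpGs in these 300 bases. The stretch shown for ZNF569 lies under its DPPA2 peak but not under its DPPA4 peak, which lies at the start of ZNF570. The unbound promoters of ZNF541 and ZNF577 hold 49 and 25. Among the 210 members with a RefSeq promoter the median was 20 CpGs, against 22 over 15316 coding promoters. The 55 of those members with both proteins in parental H661 had a median of 23, and the 155 without the pair had a median of 20.

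Within 500 bp on either side of the start, the ratio of observed to expected CpGs (CpG o/e) had a median of 0.712 in members (interquartile range 0.614 to 0.765), against 0.725 over all promoters (0.408 to 0.838). Members thus span a narrower range, with few CpG-poor promoters. Their median GC content was 58.5%, against 61.3% over all promoters. Shares below therefore stand beside the share over all promoters, the share among promoters of like CpG, or both. Promoters of like CpG are the other coding promoters weighted to the members' CpG o/e. Shares of single lists, shares given DPPA4 and losses with Dox mostly have the share over all promoters alone. Intervals are exact 95% binomial intervals. They cover counting only, and the members are related sequences, some of which share a window and a region, so they are not independent observations.

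The lists differed greatly in size, with 4904 to 105640 EPIC2 domains, 12 to 50414 MACS2 peaks and 48262 to 6850681 reads in domains per library. In H1299 every replicate 2 library had fewer bound promoters than replicate 1 of the same antibody, and Flag monoclonal replicate 2 had almost none. The total number of reads per library is not given in these lists. The IgG libraries of H1299 are labelled replicate 1, and those of the hairpin lines come from water-treated cells. Replicate 2 of H1299 and the Dox arms thus had no IgG library of their own. The plot of shares by library shows members and the 3 reference sets side by side.

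**Figure D1:**
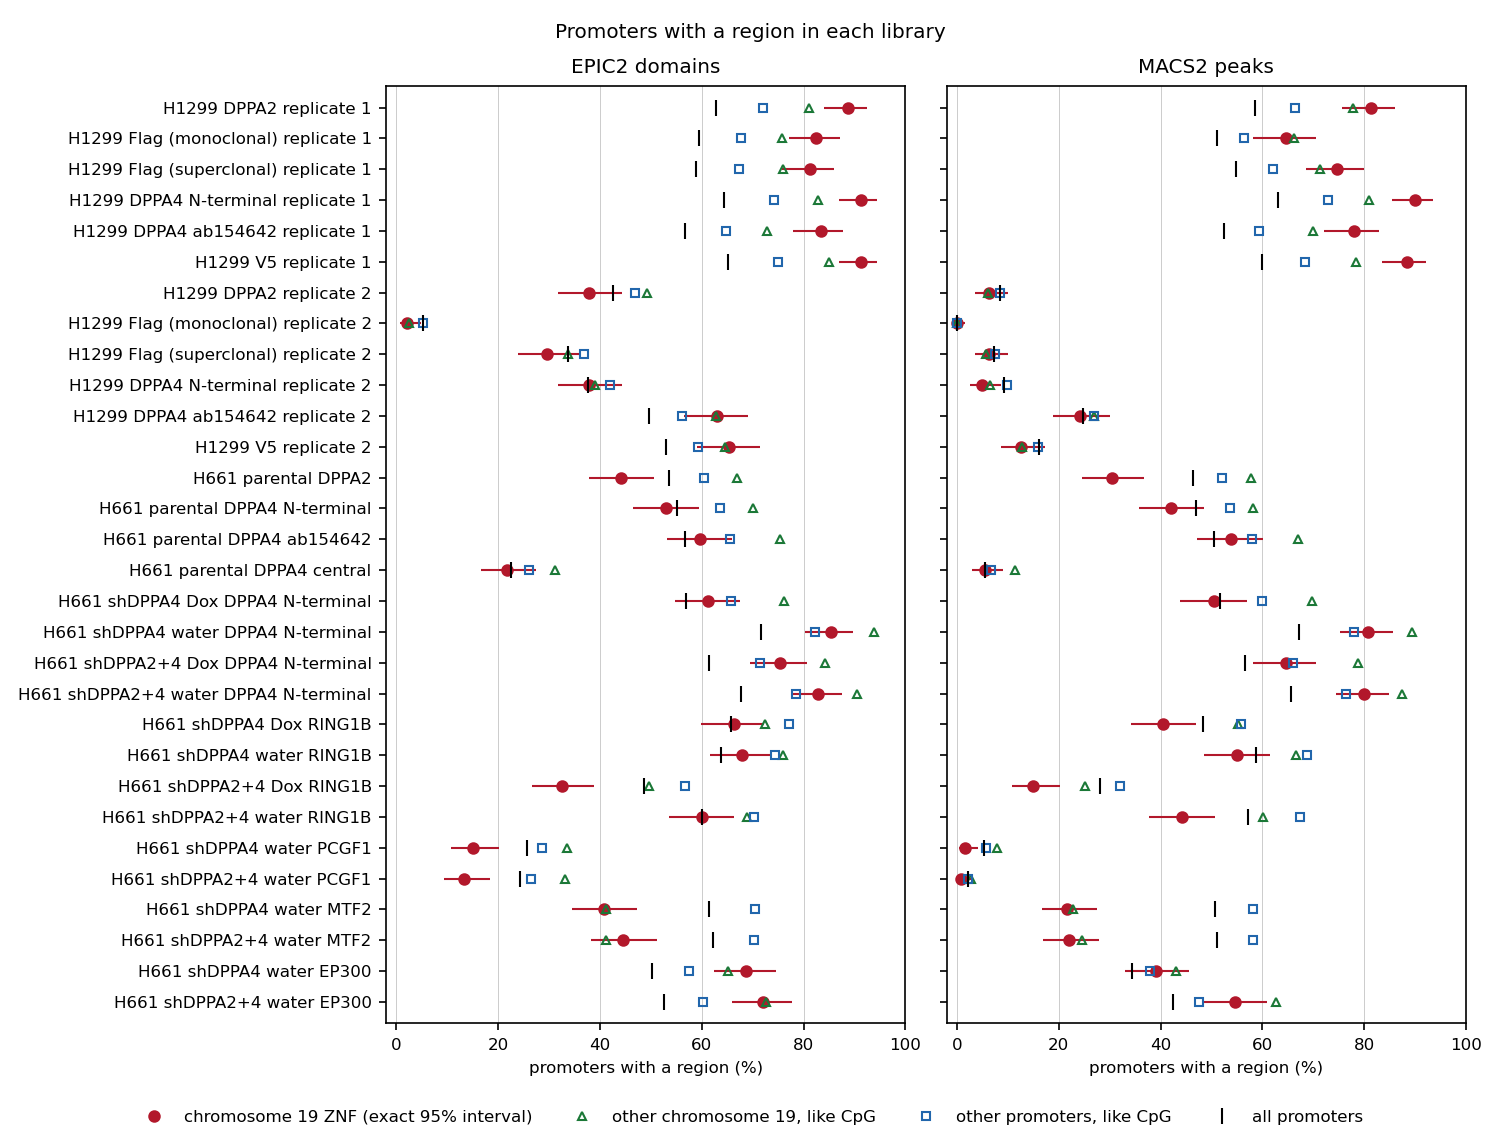
Percent of promoters with a region in each library (EPIC2 domains left, MACS2 peaks right). Circles are the 240 chromosome 19 ZNF promoters with exact 95% intervals, triangles other chromosome 19 promoters of like CpG, squares other promoters of like CpG and ticks all promoters. Members lie to the right of all 3 marks in the EPIC2 lists of H1299 replicate 1 and to the left of them in the lists of parental H661 DPPA2.

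In parental H661, which makes its own proteins, DPPA2 and DPPA4 were found together at fewer chromosome 19 ZNF promoters than at promoters of like CpG. MACS2 peaks of both DPPA2 and DPPA4 (N-terminal antibody) touched 61 of 240 members (25.4%, interval 20.0 to 31.4), against 43.8% at like CpG and 39.2% over all promoters. The share was 39.2% when other promoters were matched on CpG o/e and GC together, and 47.4% among other chromosome 19 promoters of like CpG. ZNF promoters on other chromosomes had the pair in 47.5%, so the lower share was not seen across ZNF promoters in general. DPPA2 was the rarer of the pair. DPPA4 without DPPA2 occurred at 40 members (16.7%, against 9.87% at like CpG and 7.85% over all promoters), and DPPA2 without DPPA4 at 12 (5.0%, against 8.20% at like CpG and 7.18% over all promoters).

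By antibody, DPPA2 peaks lay at 73 members (30.4%, all promoters 46.3%) and DPPA2 domains at 106 (44.2%, all promoters 53.5%). The N-terminal DPPA4 antibody gave peaks at 101 (42.1%, all promoters 47%) and domains at 127 (52.9%, all promoters 55.2%). With ab154642 there were peaks at 129 members (53.8%, all promoters 50.6%) and domains at 143 (59.6%, all promoters 56.7%). At like CpG these ab154642 shares were 58.0% and 65.5%. Against like CpG in peaks, members were 21.6 percentage points lower for DPPA2, which was the widest gap of the 4 antibodies. The central DPPA4 antibody found few promoters of any kind, with peaks at 13 members (5.42%, all promoters 5.47%) and domains at 52 (21.7%, all promoters 22.5%). Where a DPPA2 peak was present it covered the start site itself at 38 of 73 members (52.1%, all promoters 44.8%), and a DPPA4 peak did so at 52 of 101 (51.5%, all promoters 50.0%). Parental N-terminal DPPA4 domains, at 52.9% of members, compared with 63.65% at like CpG. In water-treated H661 hairpin lines the same antibody lay slightly above like CpG, at 85.4% against 82.3% (shDPPA4) and 82.9% against 78.6% (shDPPA2+4). Reads in domains were 668336 in the parental library, 6624283 in shDPPA4 and 2688073 in shDPPA2+4. The part of library size in the low parental shares was not tested. DPPA2 was not mapped in the hairpin lines.

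Of the 10 members with the highest folds of both proteins, 6 lay in a single cluster at 36.21 to 37.78 Mb. They were chosen by these folds, which are given as a description. ZNF524 (start at chromosome 19 position 55600288) had a DPPA2 peak of 16.4-fold over IgG background from 55599712 to 55600584 and a DPPA4 peak of 17.1-fold from 55599713 to 55600977, both across its start and that of its neighbour FIZ1. ZNF790 (start 36838387) had folds of 14.8 for DPPA2 and 18.2 for DPPA4, and it was 1 of the 13 members with a peak of the central antibody (14.7-fold). ZNF569 (start 37467444) and ZNF570 (start 37469356) are divergent neighbours under a single DPPA2 peak of 15.1-fold from 37466512 to 37470118. Their DPPA4 peak of 16-fold, from 37468856 to 37469662, covered the start of ZNF570 and not that of ZNF569. ZNF345, whose sequence is shown above, had folds of 14.1 and 16.7. ZNF566, ZNF575, ZNF260, ZNF784 and ZNF181 completed the first 10, with DPPA2 folds of 9.4 to 15.4 and DPPA4 folds of 11.5 to 16.2. All 10 had domains in all 6 replicate 1 libraries of H1299 and in 2 to 5 of the 6 replicate 2 libraries.

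In parental H661 the share with the pair was highest in the most CpG-rich class of members, as of other promoters, and lower in members in each class from 0.5 up. With CpG o/e from 0.7 to 0.8, the class with most members, 22 of 86 members had the pair (25.6%), against 50.9% of other promoters in the class. From 0.8 to 0.9 the pair was at 10 of 30 members (33.3%), against 60.5% of others. Above 0.9 it was at 6 of 12 (50.0%, interval 21.1 to 78.9), against 65.8%. Few members are CpG-poor, and the pair was at 1 of 7 below 0.4 (14.3%, interval 0.361 to 57.9, against 3.77% of others) and 1 of 10 from 0.4 to 0.5 (10%, against 14.4%).

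**Figure D2:**
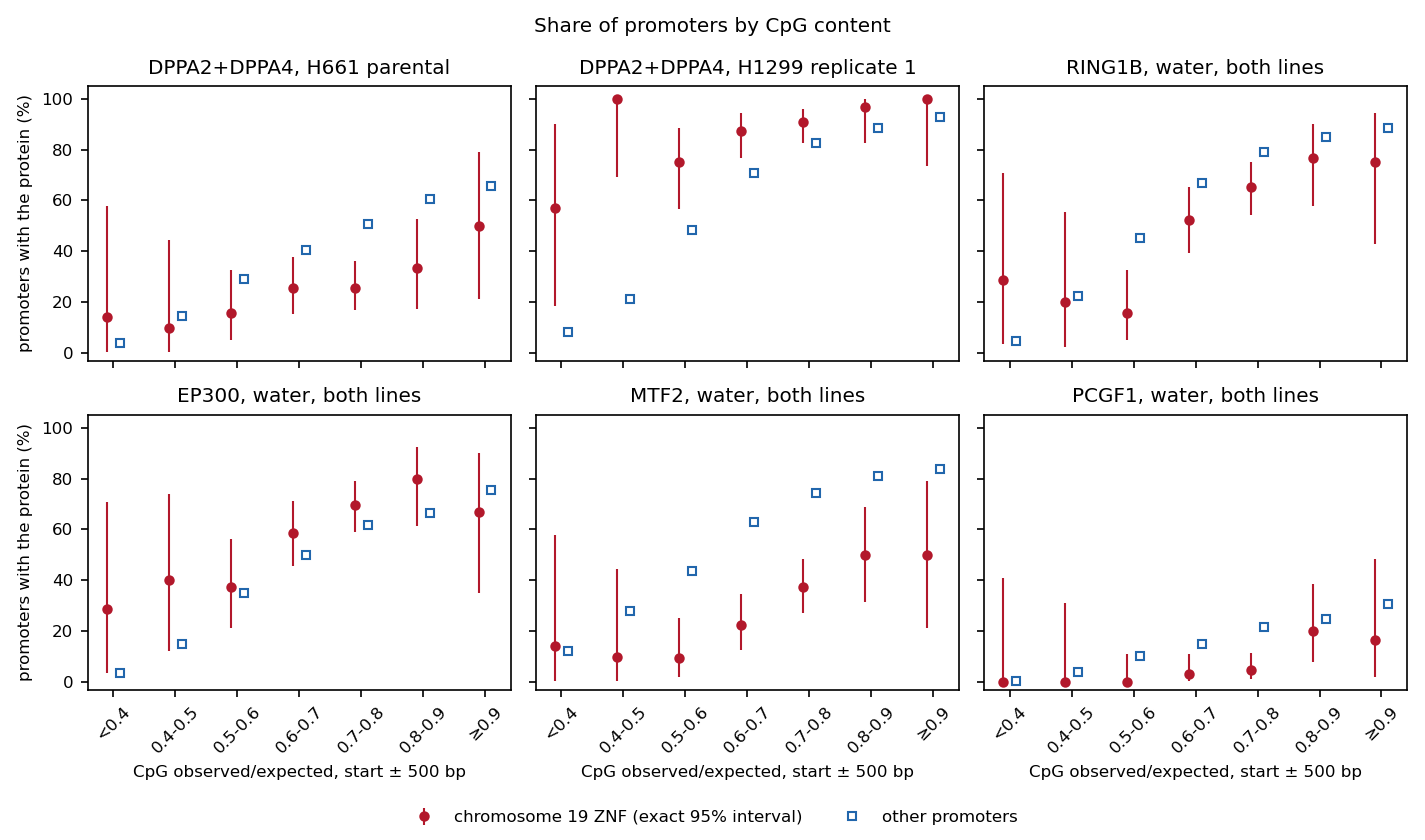
Percent of promoters with the protein (y axis) by CpG o/e class (x axis), for 6 readouts. Filled circles are chromosome 19 ZNF promoters with exact 95% intervals and open squares other promoters. In H661 (MACS2 peaks) the pair was at 25.6% of members and 50.9% of others at CpG o/e 0.7 to 0.8. In H1299 replicate 1 (EPIC2 domains) it was at 90.7% of members and 82.4% of others, so these panels differ in caller too.

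In H1299, which carries the introduced proteins, the 2 replicates placed members on opposite sides of the comparison. In replicate 1, DPPA2 and DPPA4 (N-terminal) domains were both present at 212 members (88.3%, interval 83.6 to 92.1), against 70.4% at like CpG, 79.8% at other chromosome 19 promoters of like CpG and 61.4% over all promoters. In replicate 2 the pair was at 59 members (24.6%), against 33.3% at like CpG, 31.2% at like CpG on chromosome 19 and 30.7% over all promoters. The same number, 59 (24.6%, interval 19.3 to 30.5), had the pair in both replicates, against 33.2% at like CpG and 30.6% over all promoters. ZNF promoters on other chromosomes, not weighted to CpG, had the pair at 83.5% in replicate 1 and 46.2% in replicate 2. A high share in replicate 1 was thus seen at ZNF promoters elsewhere too, and the low share in replicate 2 was not. The direction against like CpG in H1299 therefore depends on which replicate is read, and replicate 2 had the smaller lists.

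Replicate 1 gave members a high share with every antibody, the DPPA2-directed ones first. DPPA2 domains lay at 213 members (88.8%, all promoters 62.8%) and peaks at 195 (81.3%, all promoters 58.5%). Flag (monoclonal) gave domains at 198 (82.5%, all promoters 59.4%) and peaks at 155 (64.6%, all promoters 51%). Flag (superclonal) gave domains at 195 (81.3%, all promoters 58.9%) and peaks at 179 (74.6%, all promoters 54.9%). Of the antibodies to DPPA4 and its tag, the N-terminal one and V5 reached the most members, and ab154642 fewer than the DPPA2 antibody. N-terminal DPPA4 domains lay at 219 (91.3%, all promoters 64.3%) and peaks at 216 (90.0%, all promoters 63.1%). Those of ab154642 lay at 200 (83.3%, all promoters 56.7%), with peaks at 187 (77.9%, all promoters 52.5%). V5 domains were found at 219 (91.3%, all promoters 65.2%) and V5 peaks at 212 (88.3%, all promoters 60%). In these EPIC2 lists the members' interval lay above the share at like CpG for each antibody.

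In replicate 2 the members were below all promoters with the DPPA2-directed antibodies, and near or above them in domains of the DPPA4-directed ones. DPPA2 domains lay at 91 members (37.9%, all promoters 42.5%) and peaks at 15 (6.25%, all promoters 8.4%). Flag (monoclonal) gave domains at 5 (2.08%, all promoters 5.27%) and peaks at 0 (all promoters 0%), and 0 of 240 has an exact upper limit of 1.53%. Flag (superclonal) gave domains at 71 (29.6%, all promoters 33.8%) and peaks at 15 (6.25%, all promoters 7.31%). Only ab154642 and V5 covered most members in this replicate. N-terminal DPPA4 domains lay at 91 (37.9%, all promoters 37.6%) and peaks at 12 (5.0%, all promoters 9.15%). With ab154642, domains were at 151 (62.9%, all promoters 49.6%) and peaks at 58 (24.2%, all promoters 24.7%). V5 domains were at 157 (65.4%, all promoters 53%) and peaks at 30 (12.5%, all promoters 16.2%). At like CpG the domains were at 42.0% (N-terminal), 56.2% (ab154642) and 59.3% (V5).

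Counted over the 12 H1299 libraries, a member had a domain in a median of 8, as did all promoters, but the spread differed. There were 180 members (75%) with domains in all 6 replicate 1 libraries, against 54.0% of all promoters, and 4 (1.67%) with domains in all 6 of replicate 2, against 3.97%. No domain in any H1299 library was found at 19 members (7.92%), against 31.7% of all promoters. Counting peaks as well left the members at 19, against 21.1% at like CpG and 31.2% over all promoters. Fewer members than other promoters therefore lacked these proteins in H1299, and fewer had a domain in 11 or 12 of the 12 libraries (45, or 18.8%, against 23.3% of all promoters).

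**Figure D3:**
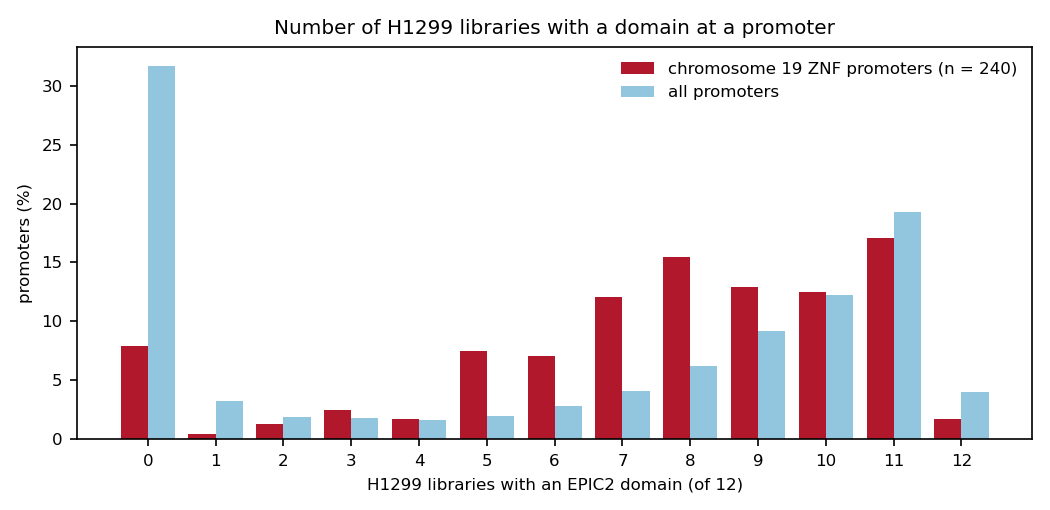
Percent of promoters (y axis) by the number of the 12 H1299 libraries with a domain (x axis), for the 240 chromosome 19 ZNF promoters and all promoters. No domain was found at 7.92% of members and 31.7% of all promoters.

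The same promoters were compared between DPPA2-directed (DPPA2 and both Flag) and DPPA4-directed (N-terminal, ab154642 and V5) libraries of H1299, 6 against 6. Members had on average 1.1 fewer DPPA2-directed than DPPA4-directed libraries with a domain, and all promoters 0.638 fewer. By Fisher's exact test per promoter (two-sided, Benjamini-Hochberg over 19970 promoters) 0 promoters passed an adjusted p of 0.05 (0%), of members or otherwise. At an unadjusted p under 0.05 there were 9 promoters (0.0451%), none of them a member, and the lowest p among members was 0.182. With 6 against 6 the test cannot go below 0.00217, and 865 promoters would have to reach that value for any adjusted p to pass, so the test could hardly have made a call. Whether the replicates were separate cultures is not stated, so these p-values measure only the spread between libraries.

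The pair was found in both cell lines at 29 members (12.1%, against 24.5% at like CpG and 23.1% over all promoters). H661 alone had it at 32 members (13.3%, against 19.3% at like CpG and 16.1% over all promoters). H1299 alone, in both replicates, had it at 30 members (12.5%, against 8.72% at like CpG and 7.54% over all promoters). Of the 61 members with the pair in H661 and the 59 with it in H1299, the same 29 were thus in both sets. The 2 cell lines were read with different callers here, parental H661 from MACS2 peaks and H1299 from EPIC2 domains. With EPIC2 domains the pair was at 90 members in parental H661. With MACS2 peaks it was at 4 in both H1299 replicates. The part of the callers in these overlaps was not tested.

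A set of members was empty in H661 yet fully covered in H1299. No region of any protein was found in any of the 36 lists of the 18 H661 libraries at 33 members (13.8%, interval 9.66 to 18.8), against 7.74% at like CpG and 17.8% over all promoters. Of these, 20 had at least 1 H1299 list (8.33%, against 1.10% at like CpG and 1.41% over all promoters), and 12 had domains in all 6 replicate 1 libraries (5.0%, against 0.147% at like CpG and 0.2% over all promoters). Genome-wide 40 promoters met this last description, so members made up 30% of them. The description was chosen after the values had been seen and carries no test. The 12 genes were ZNF556, ZNF491, ZNF69, ZNF844, ZNF100, ZNF43, ZNF257, ZNF254, ZNF582, ZNF814, ZNF135 and ZNF544, spread over clusters 1, 3, 4, 9 and 10 as defined below. In replicate 2 these 12 had domains in 2 to 5 of 6 libraries (median 3), and the other 28 promoters in 0 to 5 (median 2). With a log2 fold limit of 2 in place of 1 the count was 7 members of 27 promoters.

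ZNF582 and ZNF135 show this pattern well. At ZNF582 (start 56393534, CpG o/e 0.90) the log2 fold over IgG of the domain in H1299 replicate 1 was 4.70 with DPPA2, 4.38 with Flag monoclonal, 4.42 with Flag superclonal, 4.60 with DPPA4 N-terminal, 3.14 with ab154642 and 5.03 with V5. In replicate 2 it was 2.35, 1.22, 1.59, 1.11 and 1.91 with DPPA2, DPPA4 N-terminal, ab154642, Flag superclonal and V5, and Flag monoclonal had none. At ZNF135 (start 58059282, CpG o/e 0.76) the replicate 1 values ran from 3.57 to 7.03 and those of replicate 2 from 1.53 to 4.53, again without Flag monoclonal. None of the 18 H661 libraries had a domain or peak at either promoter. DNA methylation and copy number were not measured in these libraries.

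No region in any library of either cell line was found at 13 members (5.42%, against 6.64% at like CpG and 16.4% over all promoters). The 5 most CpG-rich members without DPPA2 or DPPA4 in any of the 40 lists of those proteins were ZNF541 (CpG o/e 0.82), ZNF577 (0.77), ZNF154 (0.76), ZNF534 (0.75) and ZNF728 (0.61), and none of the 5 had RING1B, PCGF1, MTF2 or EP300 either. ZNF541 is a germ cell gene needed in mouse spermatocytes, and ZNF154 is known for promoter methylation in carcinomas. The other 3 have no role given here.

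Among 8 members whose promoters are known to become methylated in carcinomas, some had no region in H661 and others had both DPPA2 and DPPA4. ZNF154, ZNF582 and ZNF132 had no region in H661, and ZNF671 had DPPA4 in the water-treated hairpin lines only in shDPPA4 (log2 fold 2.43) and RING1B only in shDPPA2+4 (5.13). ZNF331 (DPPA2 fold 6.8, DPPA4 5.5) and ZNF382 (4.6 and 6.3) had the pair in parental H661. ZNF677 had peaks of DPPA2 (5.1) and ab154642 (5.6), and ZNF471 of DPPA4 (5.7) and ab154642 (6.2). In H1299, ZNF582 and ZNF331 had domains in 11 of 12 libraries, ZNF677 and ZNF471 in 9, ZNF382 in 8, ZNF132 in 2, ZNF671 in 1 and ZNF154 in 0. The cancer-methylated genes thus had no common pattern in either cell line.

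Members known for silencing retroelements also differed from one another. ZNF93, which represses LINE-1 elements, had peaks of DPPA2 (9.6-fold), DPPA4 (4.6-fold), ab154642 (7.2-fold) and the central antibody (5.9-fold) in parental H661. ZNF91, which represses SVA elements, ZNF649, which binds LINE-1 elements, and ZNF274, which binds the 3′ ends of ZNF genes and recruits SETDB1, had no parental H661 region with any antibody. In H1299 domains were present at ZNF93 in 11 of 12 libraries, at ZNF91 and ZNF274 in 10 and at ZNF649 in 5. DPPA4 was at all of them in both water-treated hairpin lines, with log2 folds between 2.08 and 5.10.

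In the water-treated hairpin lines, where all proteins were mapped, members had more EP300 and less RING1B, MTF2 and PCGF1 than promoters of like CpG. DPPA4 domains in both lines were at 198 members (82.5%, interval 77.1 to 87.1, which contains the 77.9% at like CpG, against 67.1% over all promoters). EP300 was at 147 members in both lines (61.3%, interval 54.8 to 67.5, against 51.8% at like CpG and 45.6% over all promoters). RING1B was at 130 (54.2%, interval 47.6 to 60.6, against 67.1% at like CpG and 57.6% over all promoters). MTF2 was at 72 (30.0%, interval 24.3 to 36.2, against 64.0% at like CpG and 56.4% over all promoters). PCGF1 was at 14 (5.83%, interval 3.23 to 9.59, against 17.4% at like CpG and 16% over all promoters). ZNF promoters on other chromosomes, not weighted to CpG, had EP300 at 67.8%, RING1B at 72.9%, MTF2 at 67.8% and PCGF1 at 15.7%. The high EP300 share was thus also seen at ZNF promoters elsewhere, and the low shares of the other 3 proteins were not.

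Set against other chromosome 19 promoters of like CpG, the picture changed for MTF2 and EP300 and held for RING1B and PCGF1. MTF2 was at 30.0% of members and 30.2% of these neighbours, and EP300 at 61.3% and 62.4%. DPPA4 was at 82.5% of members, below the neighbours' 90.3%. RING1B was at 54.2% of members and 66.6% of neighbours, and PCGF1 at 5.83% and 22.6%. The low MTF2 and high EP300 shares were therefore shared with the rest of chromosome 19. MTF2 was at 25.7% of all chromosome 19 promoters, the lowest of 23 chromosomes, with chromosome 22 next at 43.9% and a median of 61.4%. The number of IgG reads per kb in MTF2 domains was highest on chromosome 19, at 3.23 in shDPPA4 and 3.69 in shDPPA2+4, against medians of 1.83 and 2.05 over the other chromosomes. In EP300 domains of shDPPA4 the IgG reads per kb were also highest on chromosome 19, at 7.68 against a median of 5.885. EP300 at other chromosome 19 promoters was 7.98 percentage points above like CpG, the highest of 23 chromosomes. The part of this background in the MTF2 and EP300 shares was not tested.

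EP300 without MTF2 marked 33 members (13.8%, against 4.38% at like CpG, 19.4% at like CpG on chromosome 19 and 3.63% over all promoters). MTF2 without EP300 was found at 1 member (0.417%, against 15.7% at like CpG, 2.47% on chromosome 19 and 13.4% over all promoters). EP300 without MTF2 was therefore frequent at members relative to the genome and not relative to chromosome 19.

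The single lists gave the following counts. DPPA4 domains lay at 205 members in shDPPA4 water (85.4%, all promoters 71.7%) and 199 in shDPPA2+4 water (82.9%, all promoters 67.7%), and peaks at 194 (80.8%, all promoters 67.3%) and 192 (80.0%, all promoters 65.7%). RING1B domains lay at 163 in shDPPA4 water (67.9%, all promoters 63.7%) and 144 in shDPPA2+4 water (60%, all promoters 60%), and peaks at 132 (55.0%, all promoters 58.7%) and 106 (44.2%, all promoters 57.3%). At like CpG the RING1B domains were at 74.45% and 70.2% and the peaks at 68.8% and 67.5%. EP300 domains lay at 165 in shDPPA4 (68.8%, all promoters 50.1%) and 173 in shDPPA2+4 (72.1%, all promoters 52.5%), and peaks at 94 (39.2%, all promoters 34.4%) and 131 (54.6%, all promoters 42.5%). For MTF2 and PCGF1 members stayed below all promoters with either caller. MTF2 domains lay at 98 in shDPPA4 (40.8%, all promoters 61.5%) and 107 in shDPPA2+4 (44.6%, all promoters 62.1%), and peaks at 52 (21.7%, all promoters 50.7%) and 53 (22.1%, all promoters 51.1%). PCGF1 domains lay at 36 in shDPPA4 (15%, all promoters 25.7%) and 32 in shDPPA2+4 (13.3%, all promoters 24.3%), and peaks at 4 (1.67%, all promoters 5.34%) and 2 (0.833%, all promoters 2.11%).

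At members the chromatin proteins were found mostly where DPPA4 was. Over all promoters EP300 and PCGF1 were likewise rare without DPPA4. In shDPPA4 water, 163 of the 205 members with a DPPA4 domain had RING1B (79.5%, against 85.2% of all promoters with DPPA4), 165 had EP300 (80.5%, against 69.7%), 98 had MTF2 (47.8%, against 75.8%) and 36 had PCGF1 (17.6%, against 35.5%). Of the 35 members without DPPA4, 0 had any of the 4 proteins, with an exact upper limit of 10.0%. Over all promoters without DPPA4, 9.23% had RING1B, 25.1% had MTF2, 0.4427% had EP300 and 0.6375% had PCGF1. For EP300 and PCGF1 the 0 at members is thus near the share of all promoters. In shDPPA2+4 water, 141 of 199 members with DPPA4 had RING1B (70.9%, against 83.6% of all promoters with DPPA4), 173 had EP300 (86.9%, against 77.0%), 106 had MTF2 (53.3%, against 78.1%) and 32 had PCGF1 (16.1%, against 35.4%). Of the 41 members without DPPA4 there, 3 had RING1B (7.32%, against 10.5% of all promoters without DPPA4), 1 had MTF2 (2.44%, against 28.6%) and 0 had EP300 or PCGF1 (against 1.12% and 1.08%).

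PCGF1 domains in both lines marked 14 members, among them ZNF628, ZNF383, ZNF837, ZNF30 and ZNF461 with the highest log2 folds. The values at ZNF628 were 4.16 in shDPPA4 and 4.86 in shDPPA2+4. ZNF383 had 4.69 and 4.04, and ZNF837 had 4.58 and 3.69. ZNF30 had 3.88 and 3.66, and ZNF461 had 4.58 and 1.92. RING1B domains were also present at each of these promoters in both lines except ZNF461, which had a domain and a peak in shDPPA4 and only a peak (2.7-fold) in shDPPA2+4.

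Clusters were taken as runs of at least 5 members whose neighbouring starts lie no more than 500 kb apart. There were 10, holding 228 members, and 12 members were isolated. Parental H661 binding differed widely between them. Cluster 6 (36.21 to 37.78 Mb, 24 members) had the pair at 18 members (75%, interval 53.3 to 90.2), against 50.2% at like CpG. Cluster 9 (55.48 to 56.67 Mb) had it at 9 of 16 (56.3%, against 46.7% at like CpG), and 6 of 12 isolated members had it (50%, against 42.2% at like CpG). Clusters 7, 8 and 10 were low. Cluster 7 (43.53 to 44.50 Mb) had the pair at 2 of 23 (8.70%, against 42.9% at like CpG), cluster 8 (51.57 to 53.54 Mb) at 6 of 39 (15.4%, against 48.2%) and cluster 10 (57.19 to 58.48 Mb) at 4 of 41 (9.76%, against 51.4%).

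The other clusters had fewer members with the pair than like CpG, though each of their intervals contained the share at like CpG. Cluster 2 (8.51 to 9.77 Mb) had the pair at 3 of 13 members (23.1%, against 44.9% at like CpG) and cluster 3 (11.51 to 12.61 Mb) at 6 of 25 (24.0%, against 40%). Cluster 4 (19.67 to 24.09 Mb), the least CpG-rich with a median CpG o/e of 0.531, had it at 5 of 37 (13.5%, against 25.9%). Cluster 5 (34.68 to 34.96 Mb) had 2 of 5 (40%, against 59.5%) and cluster 1 (2.82 to 2.94 Mb) had 0 of 5 (against 49.6%), with too few members to place either.

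In H1299 replicate 1 the clusters were more alike, with the pair at 76.9% to 100% of members in each and at all 24 of cluster 6. In replicate 2 cluster 6 again had a high share, with 14 of 24 (58.3%, interval 36.6 to 77.9, against 38.8% at like CpG). Clusters 7 and 8 had a low one, with 1 of 23 (4.35%, against 32.4%) and 2 of 39 (5.13%, against 37.6%). Cluster 3 had 11 of 25 (44%, against 28.6%) and cluster 10 had 8 of 41 (19.5%, against 40.5%). Clusters 6, 7, 8 and 10 were thus high or low in the same way in replicate 2 of H1299 as in parental H661. The interval of cluster 6 in replicate 2 contained its share at like CpG. Clusters 2 and 5 had lower shares than like CpG in both, with intervals that contained it. Clusters 3 and 4 and the isolated members lay on opposite sides of like CpG in the 2 cell lines. Each of their intervals contained the share at like CpG, so a change between cell lines is not shown. Cluster 4 had 13.5% in H661 (against 25.9% at like CpG) and 24.3% in replicate 2 (against 16.3%). The isolated members had 50% in H661 (against 42.2%) and 8.33% in replicate 2 (against 33.2%). Clusters 1 and 9 were near like CpG in replicate 2.

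The chromatin proteins did not follow the same order. Cluster 6 had EP300 in both lines at 20 of 24 members (83.3%, against 58.9% at like CpG) and MTF2 at 3 (12.5%, against 72.0%). MTF2 was highest in clusters 5, 9 and 10, at 4 of 5 (80%, against 77.5% at like CpG), 9 of 16 (56.3%, against 67.5%) and 20 of 41 (48.8%, against 73.1%). RING1B ranged from 6 of 37 in cluster 4 (16.2%, against 40.3% at like CpG) to 5 of 5 in cluster 5. PCGF1 was found at 0 members of clusters 2, 3, 4, 7 and 8 and of the isolated ones, where like CpG had 8.53% to 19.5%. It was at 5 of 24 in cluster 6 (20.8%, against 20.5%) and 4 of 16 in cluster 9 (25%, against 19.4%), near like CpG. Cluster 4 also held 11 of the 33 members with no region in H661. The map of clusters sets out these shares.

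**Figure D4:**
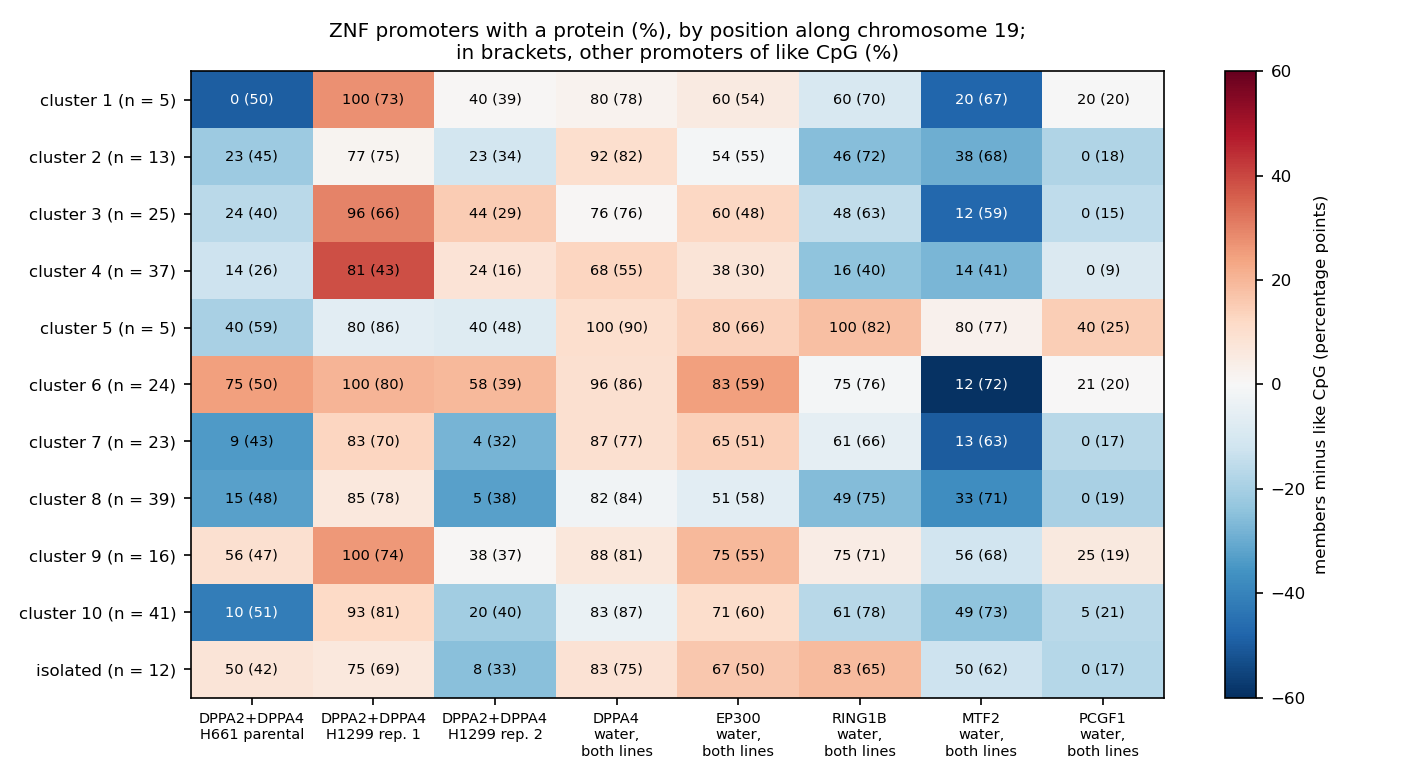
Percent of members with a protein by cluster (rows, in order along chromosome 19) and readout (columns), with other promoters of like CpG in brackets. Color is the difference in percentage points. The pair in parental H661 was at 75% of cluster 6 and at 8.70%, 15.4% and 9.76% of clusters 7, 8 and 10.

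Knockdown was compared as Dox against water within each hairpin line, on the log2 ratio of reads per kb of the strongest domain, scaled to library size. Each arm is 1 library, so no test was possible, and only promoters with a domain in both arms have a ratio. The medians at members were below 0 for both proteins in both lines and lay near those of all promoters. In shDPPA4 the median for DPPA4 was -0.41 over 147 members (quartiles -0.73 and -0.0027), against -0.41 over all promoters. For RING1B it was -0.38 over 148 members (quartiles -0.66 and -0.027), against -0.29. In shDPPA2+4 the median for DPPA4 was -0.51 over 180 members (quartiles -0.84 and -0.22), against -0.64 over all promoters. For RING1B it was -0.74 over 73 members (quartiles -1.06 and -0.41), against -0.69. The quartiles describe the spread between promoters and not between libraries. Leaving out the scaling to library size shifts all promoters of a comparison by 1 constant. In shDPPA2+4, where the Dox library of DPPA4 was 1.93 times as large as the water library, the members' median was then 0.44, and members stayed 0.13 above all promoters either way.

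A fall of 2-fold or more in DPPA4 was found in shDPPA4 at 15 members (10.2%, all promoters 14.9%), and in RING1B at 10 (6.76%, all promoters 8.29%). In shDPPA2+4 it was found at 33 for DPPA4 (18.3%, all promoters 23.2%) and at 19 for RING1B (26.0%, all promoters 25.9%). These shares lay near or below those of all promoters. Counted on the reads of all domains in the window, without division by width, the DPPA4 fall was found at 114 members in shDPPA4 (77.6%, all promoters 75.3%) and 95 in shDPPA2+4 (52.8%, all promoters 63.7%), a measure added after seeing the data. Domains were lost at a larger share of members than of all promoters in 3 of the 4 comparisons. In shDPPA2+4, 71 of the 144 members with RING1B in water had none in Dox (49.3%, against 22.8% of all promoters with RING1B in water), and in shDPPA4, 58 of 205 had lost DPPA4 (28.3%, against 21.0%). RING1B in shDPPA4 was lost at 15 of 163 (9.20%, against 3.93%). For DPPA4 in shDPPA2+4 the members, at 19 of 199 (9.55%), were near all promoters (9.84%). No share at like CpG was taken for these losses. The median fold over IgG of RING1B domains in water was 5.73 at members of shDPPA4, against 7.58 over all promoters, and 5.32 at members of shDPPA2+4, against 6.36. The part of this lower fold in the losses was not tested.

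**Figure D5:**
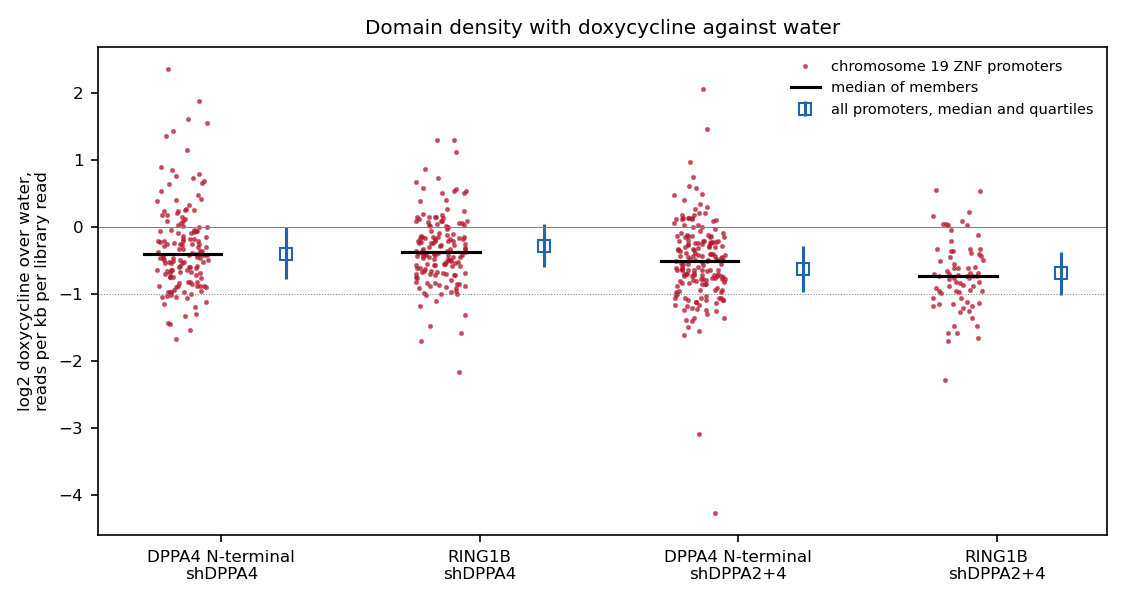
Log2 ratio of Dox to water in reads per kb per library read (y axis) for DPPA4 and RING1B in each hairpin line. Points are chromosome 19 ZNF promoters with a domain in both arms, bars their medians, squares the median and quartiles of all promoters, and the dotted line a fall of 2-fold. The 4 medians of members lie between -0.74 and -0.38.

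In numbers of promoters, DPPA4 domains in Dox lay at 147 members of shDPPA4 (61.3%, all promoters 56.8%) and 181 of shDPPA2+4 (75.4%, all promoters 61.4%), and peaks at 121 (50.4%, all promoters 51.7%) and 155 (64.6%, all promoters 56.6%). RING1B domains in Dox lay at 159 members of shDPPA4 (66.3%, all promoters 65.7%) and 78 of shDPPA2+4 (32.5%, all promoters 48.6%), and peaks at 97 (40.4%, all promoters 48.3%) and 36 (15%, all promoters 28.1%). At like CpG the domains in Dox were at 65.8% and 71.5% for DPPA4 and at 77.2% and 56.6% for RING1B.

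The members with the largest mean fall in DPPA4 over both lines were ZNF524, ZNF566, ZNF420, ZNF865 and ZNF581, chosen by these values. At ZNF524 the log2 ratio was -0.44 in shDPPA4 and -4.27 in shDPPA2+4, where the strongest Dox domain had 9 reads over 0.399 kb with 0 IgG reads and the water domain had 588 reads over 2.599 kb. Each of the other 4 likewise had a strongest Dox domain of 8 to 14 reads in 1 line. When all domains touching the window were combined, a choice made after seeing these values, the ratio at ZNF524 was 0.05 in shDPPA4 and -0.70 in shDPPA2+4. At ZNF566 it was then -0.06 and -0.46, at ZNF420 -1.21 and 0.04, at ZNF865 -0.27 and -0.66 and at ZNF581 -0.57 and -0.68. In reads per kb over the whole window, only ZNF420 in shDPPA4 kept a fall of more than 2-fold among these 5. The DPPA4 medians over members were then -0.36 in shDPPA4 and -0.49 in shDPPA2+4, close to the values above.

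In the promoter sequences, CCGGAAG (the core of ETS family sites, searched on both strands) was present in 93 of 210 members (44.3%), against 14.4% of 15316 coding promoters and 17.5% at like CpG. The pair was found in parental H661 at 16 of the 93 with it (17.2%, interval 10.2 to 26.4) and at 39 of the 117 without it (33.3%, interval 24.9 to 42.6). In H1299 both replicates had the pair at 24 of 93 (25.8%) and 33 of 117 (28.2%). GGGCGG, the GC box, was in 146 members (69.5%), against 59.2% of all and 67.8% at like CpG. GCATGCGC was in 7 members, AAGATGGC in 13, TGACGTCA in 7 and TCTCGCGA in 3, shares of 1.43% to 6.19%, against 1.79% to 4.24% of all promoters. ZNF345 holds both CCGGAAG and GGGCGG in the stretch shown, ZNF541 and ZNF577 hold GGGCGG, and ZNF569 holds none of the 6.

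A second protein-coding start lay within the window of 33 members, as at ZNF524. The pair was in parental H661 at 14 of these 33 (42.4%, interval 25.5 to 60.8) and at 47 of the 207 others (22.7%, interval 17.2 to 29.0). In H1299 it was in both replicates at 16 of 33 (48.5%) and 43 of 207 (20.8%). The same order held over all promoters, where the pair was in parental H661 at 55.2% of 2985 with a second start and 36.3% of the others, and in H1299 at 48.0% and 27.6%. The difference at members was not tested, the H661 intervals overlap, and at 8 of the 33 the second start is another member, so that a region can count for both.

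The co-repressors that KRAB zinc finger proteins work with were listed for comparison, 16 genes in all. The pair was at 6 of the 16 in parental H661 (CBX1, CBX5, CHD3, MPHOSPH8, DAXX and DNMT1), against 39.2% of all promoters. It was at 8 in both H1299 replicates, against 30.6% of all promoters. DPPA4 was at all 16 in both water-treated hairpin lines, against 67.1% of all promoters. RING1B and EP300 were at 13 each, against 57.6% and 45.6%. MTF2 was at 11 (all promoters 56.4%) and PCGF1 at 5 (all promoters 16%). These counts were not weighted to CpG. Among other promoters with CpG o/e from 0.8 to 0.9, DPPA4 was at 92.6%, RING1B at 84.8%, EP300 at 66.3%, MTF2 at 80.9% and PCGF1 at 24.7%. TRIM28, the partner of the KRAB domain and itself on chromosome 19, had a DPPA4 peak (5.71-fold) and no DPPA2 peak in parental H661, and no MTF2 or PCGF1 in both lines. SETDB1 had a DPPA2 peak (5.66-fold) without DPPA4.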

How the data were processed

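CUT&RUN libraries of H1299 and H661 cells were used as deposited region lists. Per the submitters' notes, the authors used Trim Galore (0.6.6), then BWA (0.7.13) against hg38, and SAMtools (1.9), Picard (2.6.0), deepTools (3.5.0) and MACS2 (2.27.1). BWA-MEM was run with default settings. An EPIC2 version is given for ChIP only, and no filter on reads that map to several places is given in the sources used here, which matters for members with near-identical copies. The deposited EPIC2 lists give whole-number read counts of library and IgG per domain, not normalized, together with the log2 fold change, p-value and FDR computed by the authors. Their score column, deposited beside these, was not used. The deposited MACS2 lists give a fold (ratio) over IgG background per peak, −log10 p-values and q-values, and an integer score. Regions were called per library by the authors, without pooling replicates.

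Regions with FDR below 0.05 and log2 fold change above 1 (MACS2 fold above 2) on chromosomes 1 to 22 and X were kept, and the blacklist used in the study was not applied. Starts come from GENCODE 44. MACS2 was the main caller for parental H661 and EPIC2 for the other lines. CpG o/e was taken over 500 bp on either side of the start, and like CpG means weights over 20 bins. The likeness to chromosome 19 promoters and to CpG with GC (10 by 10 bins) was added after seeing the data. Dox ratios used library sizes recovered from the deposited counts and log2 fold changes. The Fisher test was tested on simulated data. The study's methods state that experiments were repeated in whole batches, so replicate numbers in H1299 may mark batches. Replicate 1 had more bound promoters than replicate 2 with every antibody, and the test was repeated with the replicate number as a block. Python 3.11.15, numpy 2.4.6, scipy 1.17.1, pandas 2.3.3 and matplotlib 3.10.9 were used.

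Genes were named by rule: the 10 members with the best worse rank of DPPA2 and DPPA4 fold in parental H661, the 5 most CpG-rich without DPPA2 or DPPA4, the 5 with the largest mean DPPA4 fall, 5 with PCGF1 in both lines, and lists of retroelement silencers, methylated genes and co-repressors. The genes empty in H661 and covered in H1299 were named after their values were seen. Members and lists were chosen with earlier results of these data known. RefSeq promoters were matched for 210 of 240 members by symbol, 200 of them with a start inside the window. ZNF790 and ZNF570 have RefSeq starts 12405 and 1584 bases from the GENCODE start, so their promoters are not printed, and that of ZNF524 was not used here. Lists for the 8 IgG libraries of the 38 were not analysed here.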

Additional observations from a re-analysis of the deposited data

How the results depend on the processing

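Of 140 values under alternative settings, 98 kept their direction and size, 32 moved, 6 changed sign, and counts of the Fisher test rose once and fell in 3 cases by more than 1.5 times. Where no reason is given the cause was not tested. With the central DPPA4 antibody, which has short lists, 12 members had the pair in parental H661 and the difference from like CpG was -1.44 percentage points. In H1299 the pair in both replicates was at 4 members with MACS2 peaks (difference -1.77 points) and at 26 with a log2 fold above 2. Without one replicate it was at 59 to 212 members, with differences from like CpG of -8.70 to 17.91 points, so the sign depends on replicate 2. With MACS2 peaks in water, PCGF1 was at 4 members in shDPPA4 (-4.10 points) and 2 in shDPPA2+4 (-1.35), MTF2 at 52 (-36.57) and 53 (-36.02), EP300 in shDPPA4 at 94 (1.21), and the RING1B differences were -13.76 in shDPPA4 and -23.31 in shDPPA2+4. A log2 fold above 2 left MTF2 at 51 and 55 members, and RING1B at 94 and PCGF1 at 19 in shDPPA2+4. The members empty in H661 and covered in H1299 replicate 1 then numbered 7.

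Without scaling to library size, which adds a constant to each comparison, the Dox medians were -1.25 (DPPA4, shDPPA4), -0.025 (RING1B, shDPPA4), 0.44 (DPPA4, shDPPA2+4) and -0.049 (RING1B, shDPPA2+4). As log2 fold over IgG, DPPA4 had medians of -0.92 in shDPPA4, which differs from all promoters by -0.24, and -0.87 in shDPPA2+4, where the difference from all promoters changed sign to -0.068. Taking all domains of a window together, added after seeing the data, gave a difference for DPPA4 in shDPPA4 of 0.011. The reads of all those domains, with no division by width, gave medians of -1.34 (DPPA4, shDPPA4; 0.035 above all promoters), -0.21 (RING1B, shDPPA4) and -1.03 (DPPA4, shDPPA2+4), and a difference of 0.035 for RING1B in shDPPA2+4.

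At an unadjusted p under 0.05 the DPPA2-directed against DPPA4-directed comparison had 20 promoters without the Flag monoclonal antibody, 0 with MACS2 peaks and 0 without one replicate, where fewer libraries are left. The replicate block gave 9 promoters and changed no call. No adjusted p fell below 0.05 in any of these.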
